A study of Mus musculus with 12 samples.

Results

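Genes of retinoic acid clearance and retinol storage were followed in mouse embryonic stem cells, 5 in all: Cyp26a1, Cyp26b1, Cyp26c1, Dhrs3 and Lrat. They were chosen by name, and every array probe whose transcript accession mapped to one of these symbols or an older alias was taken. This gave 5 probes of 5 genes among 55681 probes and 20660 named genes on the arrays used for retinoic acid, and 6 probes of 4 genes among 41174 probes and 18749 named genes on the arrays used for vitamin C. No probe of the second array design matched Cyp26c1, so vitamin C values of that gene were not analysed here.

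Retinoic acid (RA) is made from retinol (vitamin A) by oxidation to retinaldehyde and then to the acid, and it switches genes on through nuclear receptors, the RARs, that bind DNA together with RXRs. The CYP26 enzymes are cytochromes P450 that hydroxylate RA and so start its removal. DHRS3 reduces retinaldehyde back to retinol, and LRAT esterifies retinol for storage, so both draw retinoid away from RA synthesis. In embryos the CYP26 enzymes are known for keeping RA out of the tissues that express them, and Cyp26a1 is a textbook target of the RA receptors.

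The cells were J1 mouse embryonic stem cells, an established line grown without feeder cells on 0.2% gelatin with leukaemia inhibitory factor (LIF) at 1000 U/mL, a cytokine that holds mouse stem cells undifferentiated. All 4 groups received LIF, and each had 3 samples treated for 24 h. RA at 1 µM was compared with 1 µL of its solvent DMSO, and vitamin C (VC, labelled 50 µg with no volume given) was compared with 1 µL of distilled water (ddH2O), to find genes that either compound regulates. Total RNA was labelled with Cy3 on one-colour Agilent arrays. The labels name no separate cultures for the replicates. The p-values therefore set each group difference only against the variation among these samples, and that variation may be technical.

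Levels are given as processed intensity, and as log2 of that intensity minus the log2 of the array's own 75th percentile, so that a level of 0 lies at that percentile. Levels of different probes, or of one gene on the 2 array designs, cannot be set against each other. A probe was called changed at a limma Benjamini-Hochberg adjusted p under 0.05 over all probes fitted, those well above background on at least 3 of 6 arrays. Across the 12 arrays 60.91% to 70.38% of probes were well above background and no spot was saturated. The 75th percentile itself was lower on the RA arrays (intensity 288 to 388) than on the DMSO arrays (608 to 612). The 3 DMSO arrays shared a slide and the 3 RA arrays shared another, so slide and treatment cannot be told apart there.

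The promoters are shown first because RA receptors bind direct repeats of a hexamer, and the members differed in whether the 250 bases before their RefSeq start held one. The hexamer searched was AGGTCA or one of its variants (the variant AGTTCA, the variant GGGTCA or the variant GGTTCA), on both strands, as 2 copies in the same orientation with 1, 2 or 5 bases between them. All 5 genes had a window, with 3 starts for Dhrs3 and 1 for each other gene. The windows printed are those of the 3 genes with the highest measured folds in RA, for Dhrs3 the most upstream start, on build GRCm38.p6 and read 5′ to 3′ on the gene's strand. Capitals mark the repeat.
Cyp26a1 (chr19:37697558-37697807, plus strand): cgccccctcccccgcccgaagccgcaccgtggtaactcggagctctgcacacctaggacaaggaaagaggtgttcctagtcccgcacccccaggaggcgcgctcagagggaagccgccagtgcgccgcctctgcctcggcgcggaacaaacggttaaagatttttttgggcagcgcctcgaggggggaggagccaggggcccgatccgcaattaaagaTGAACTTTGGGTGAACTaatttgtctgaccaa
Cyp26b1 (chr6:84593811-84594060, minus strand): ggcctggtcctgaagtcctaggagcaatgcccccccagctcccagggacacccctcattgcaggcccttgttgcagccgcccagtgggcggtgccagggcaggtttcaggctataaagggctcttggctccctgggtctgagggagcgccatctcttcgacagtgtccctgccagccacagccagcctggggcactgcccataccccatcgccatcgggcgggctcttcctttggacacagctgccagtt
Dhrs3 (chr4:144892577-144892826, plus strand): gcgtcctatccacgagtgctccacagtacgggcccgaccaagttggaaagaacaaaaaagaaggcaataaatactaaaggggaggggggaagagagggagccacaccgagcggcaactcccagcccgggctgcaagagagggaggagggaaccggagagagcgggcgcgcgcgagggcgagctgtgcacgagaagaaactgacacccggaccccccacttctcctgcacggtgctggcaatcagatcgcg

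Only Cyp26a1 held a repeat among the 7 member windows. Its 2 hexamers lay 5 bases apart on the strand opposite to the gene, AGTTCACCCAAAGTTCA when read on that strand, from 32 to 16 bases before the start (chr19:37697776-37697792). Such a repeat with 5 bases between the hexamers stood in 29 of 32851 windows (0.0883%), one with 1 base in 0.164% and one with 2 bases in 0.174%. At least 1 hexamer was found in 38.6% of all windows. Among the members that was again only the window of Cyp26a1, whose 2 hexamers were those of the repeat. Windows without a match say only that these letters were not in these 250 bases.

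RA raised all 3 CYP26 genes and Dhrs3. Cyp26b1 was 987-fold higher than in DMSO, Cyp26a1 323-fold and Dhrs3 43.8-fold. Cyp26c1 was 10.1-fold higher against DMSO signals at background, and Lrat stayed at background on all arrays. Changes were widespread in this comparison: of 37076 probes fitted, 71.6% were called, 36.1% as higher and 35.5% as lower, and 17.6% were called higher by at least 2-fold. Higher calls were 50.4% of all calls, and 34.0% with each array centred on its median instead. The RA and DMSO values of 77.1% of fitted probes did not overlap, and for 38.5% all RA values were the higher. All 5 member probes had RA values above all DMSO values, 4 were fitted and those 4 were called higher. Cyp26c1 entered the fit only through its RA arrays and had to differ, so 3 genes measured on all 6 arrays carry that count.

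**Figure D1:**
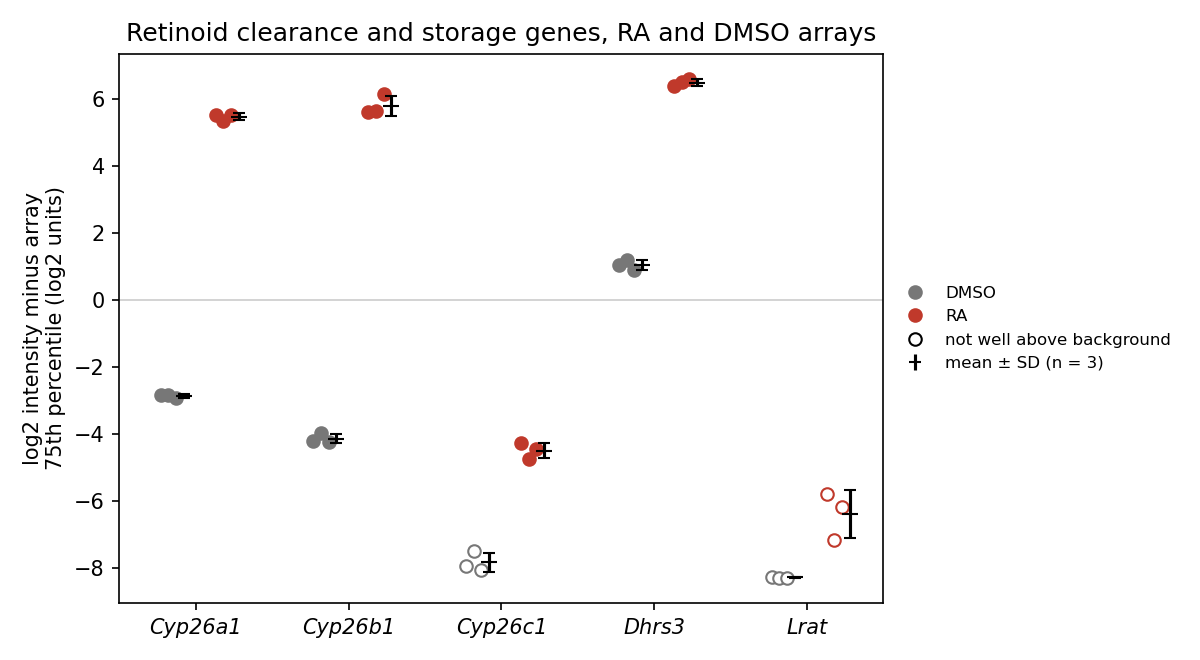
Log2 intensity minus the array's 75th percentile (vertical axis) of the 5 member probes on 3 DMSO and 3 RA arrays, with bars at mean ± SD; open points were not well above background. The RA points of Cyp26a1, Cyp26b1 and Dhrs3 lie between 5.35 and 6.61, each gene far above its own DMSO points, while all Lrat points are open.

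Cyp26a1, the main RA hydroxylase of the early embryo, had intensities of 86.6, 86.0 and 79.4 in DMSO and of 16390, 15884 and 13332 in RA. Every RA array was far above every DMSO array, and the replicates of each group lay close together. The level was -2.86 ± 0.07 (SD, n = 3) in DMSO and 5.48 ± 0.11 (SD, n = 3) in RA. The log2 difference was 8.34 (SE 0.08, 95% interval 8.13 to 8.54, limma adjusted p = 2.90e-07).

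Cyp26b1, the CYP26 gene known from limb, gonad and hindbrain, had intensities of 33.4, 38.7 and 32.2 in DMSO. In RA they were 17496, 19429 and 20428. All 3 DMSO spots were well above background, so this rise was measured on both sides. The levels were -4.14 ± 0.14 (SD, n = 3) and 5.81 ± 0.29 (SD, n = 3), with RA replicate 3 highest at 6.15. The log2 difference was 9.95 (SE 0.17, 95% interval 9.54 to 10.35, limma adjusted p = 5.13e-07).

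Cyp26c1, which lies next to Cyp26a1 on chromosome 19, had intensities of 2.50, 3.33 and 2.27 in DMSO, none well above background, and of 18.2, 14.4 and 13.1 in RA, all well above it. Its fold therefore rests on DMSO signals not separated from background, and it is neither exact nor a lower bound. On each DMSO array the probe's own signal was used, which lay above the lowest signal of any probe well above background. The measured levels were -7.84 ± 0.29 and -4.49 ± 0.24 (SD, n = 3 each), a difference of 3.34 (SE 0.19, limma adjusted p = 2.39e-05). With normexp background correction and an offset of 50 this difference was 0.97.

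Dhrs3, the retinaldehyde reductase, already lay above the 75th percentile of the arrays in DMSO. Its intensities were 1265, 1388 and 1141 in DMSO and 29627, 35219 and 28058 in RA. The groups were well apart, at 1.05 ± 0.14 and 6.50 ± 0.11 (SD, n = 3 each). The log2 difference was 5.45 (SE 0.10, 95% interval 5.20 to 5.71, limma adjusted p = 6.25e-07).

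Lrat, the retinol acyltransferase, had intensities of 1.99, 1.94 and 1.93 in DMSO and of 6.37, 2.69 and 3.93 in RA. All RA values were above all DMSO values, but none of the 6 spots was well above background, so the probe was not fitted and no fold is given. With no filter on dim probes it was called (log2 difference 1.90, SE 0.35, limma adjusted p = 0.00588), in a fit that called 22637 probes higher. These intensities give only an upper bound on the signal of this probe and not a level of Lrat.

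The members differed between VC and ddH2O by at most 1.52-fold. Cyp26b1 was lower by that factor in VC and was the member called, and Cyp26a1 and both probes of Dhrs3 were lower by smaller amounts that did not pass the test. Of 28186 probes fitted, 8.27% were called, 5.3% as lower and 2.96% as higher, and 1 of 4 fitted member probes was called, lower. Higher calls were 35.8% of all calls, and 56.3% with median scaling. All 4 fitted probes had VC values entirely below their ddH2O values, where 18.2% of the fitted probes lay entirely below and 36.6% did not overlap in either direction. At the dimmer Dhrs3 probe the groups were barely apart, and in the authors' deposited log2 values they overlapped (7.90 in VC replicate 3 against 7.86 in ddH2O replicate 1).

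**Figure D2:**
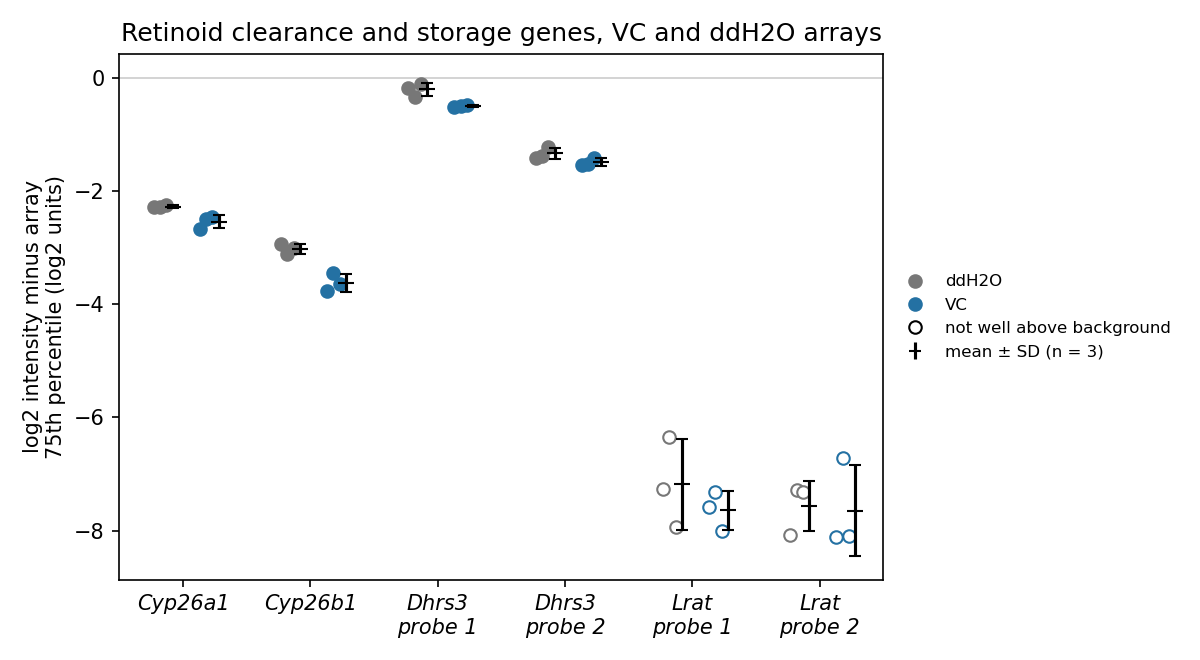
Log2 intensity minus the array's 75th percentile (vertical axis) of the 6 member probes on 3 ddH2O and 3 VC arrays, with bars at mean ± SD; open points were not well above background. The VC points of Cyp26b1 sit between -3.76 and -3.45, below its ddH2O points between -3.11 and -2.93, and the Lrat groups overlap at both probes.

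The Cyp26b1 intensities were 91.4, 65.3 and 79.5 in ddH2O and 49.2, 61.8 and 39.5 in VC. Scaled to each array, the levels were -2.93, -3.11 and -3.01 in ddH2O and -3.76, -3.45 and -3.65 in VC, with VC replicate 2 nearest to the controls. The log2 difference was -0.60 (SE 0.10, 95% interval -0.84 to -0.36, limma adjusted p = 0.0255). Cyp26b1 was called in 9 of 18 alternatives. Its sign was the same in all 18, but some of them could not move the difference from -0.60 and could change only its p-value. These were no filter on dim probes, only probes above background on all 6 arrays, and one probe per named gene. Outlier-flagged spots kept, limma-trend and a replicate block were the others. The call was lost without any one of ddH2O replicates 1, 2 and 3 or VC replicates 1 and 3, with adjusted p from 0.0624 to 0.0926, and with normexp correction the difference was -0.27 (adjusted p = 0.167).

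The VC arrays came from 3 slides. One slide held ddH2O replicates 2 and 3 and VC replicates 1 and 2, and ddH2O replicate 1 and VC replicate 3 were each on a slide of their own. VC replicate 3 was also scanned on another day than the other 5 arrays. Within the shared slide the Cyp26b1 difference was -0.54 (adjusted p = 0.146 with slide as a fixed block), and between the 2 remaining arrays, which differ in slide and scan day, it was -0.71, a value with no test. With slide as a random block it was -0.59 (limma adjusted p = 0.0240).

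The Cyp26a1 levels were -2.28, -2.29 and -2.25 in ddH2O and -2.66, -2.50 and -2.46 in VC. All VC values were lower, and the log2 difference was -0.27 (SE 0.07, 95% interval -0.44 to -0.09, limma adjusted p = 0.0740). It was called under 1 of 18 alternatives, the fit on one probe per named gene (adjusted p = 0.0460). Within the shared slide it was -0.31, and between the remaining arrays -0.17.

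Dhrs3 had 2 probes on this design. At the brighter one the levels were -0.17, -0.34 and -0.10 in ddH2O and -0.52, -0.50 and -0.48 in VC, a difference of -0.30 (SE 0.08, 95% interval -0.48 to -0.11, limma adjusted p = 0.0653). The fit on one probe per named gene (adjusted p = 0.0402) and the limma-trend fit (0.0245) called it. At the dimmer one the difference was -0.15 (SE 0.08, 95% interval -0.34 to 0.03, limma adjusted p = 0.242). Its levels were -1.41, -1.38 and -1.22 in ddH2O and -1.54, -1.52 and -1.41 in VC, with the nearest arrays of the groups equal at this rounding. Both probes shared their sign and neither passed the test.

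At both of its 2 probes Lrat stayed at background on all VC and ddH2O arrays, with intensities from 1.92 to 6.93 at one and from 1.81 to 6.36 at the other. VC and ddH2O values overlapped at both, and no fold is given.

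**Figure D3:**
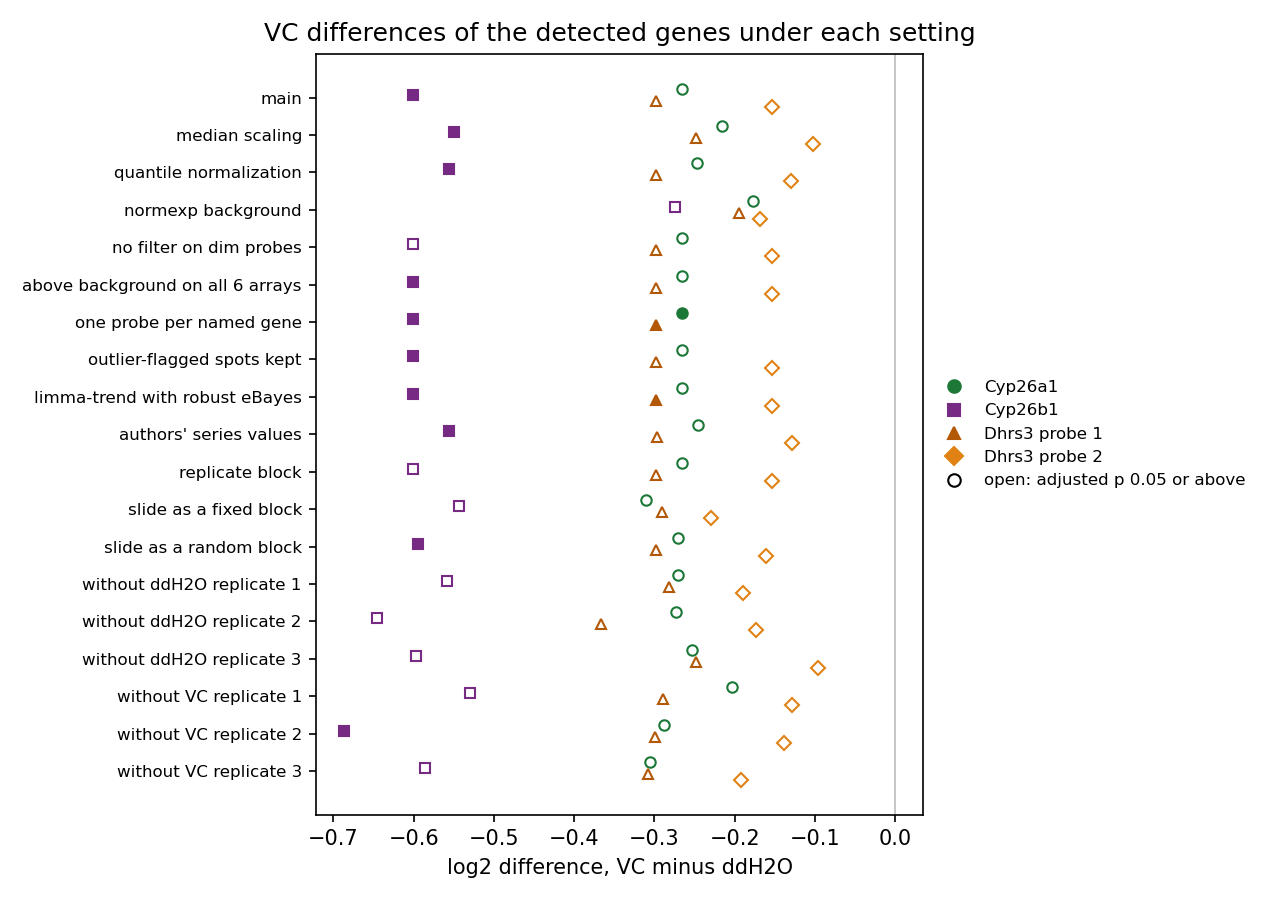
Log2 difference, VC minus ddH2O (horizontal axis), of the 4 fitted member probes under the main settings and each alternative; filled symbols have a limma adjusted p under 0.05. All points lie below 0, Cyp26b1 between -0.69 and -0.27 and filled in the main fit and 9 of 18 alternatives, and the dimmer Dhrs3 probe filled in none.

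The rest of the retinoid pathway was described gene by gene from lists, each gene by its brightest probe, with no test of a list. Over all 16035 genes fitted in RA against DMSO, 75.6% were called, 34.9% higher and 40.7% lower, with a median log2 difference of -0.07. Centring each array on its median in place of the 75th percentile moved every RA difference by -0.34. Counts that changed by over 1.5 times under that scaling are given with it. From here on, a change given without the word fold is a log2 difference.

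Of the genes that move retinoids into and through the cell, 7 of 9 fitted rose with RA and 1 fell, with a median of 1.09. Stra6, the membrane receptor for retinol-binding protein, was 92.5-fold higher, with a log2 difference of 6.53 (SE 0.13, limma adjusted p = 6.65e-07), and Crabp2, which carries RA to its receptors, was 50.1-fold higher. Rbp7, a retinol-binding protein, fell by 1.47. Genes of RA synthesis were split, with 6 of 14 fitted higher and 6 lower, or 3 higher and 7 lower with median scaling. Adh1, a retinol-oxidising alcohol dehydrogenase, was called higher, well above background on 2 of 3 DMSO arrays and 3 of 3 RA arrays, and Aldh1a1, a retinaldehyde dehydrogenase, was 5.02-fold higher. Dhrs4 and Adh5 fell by 1.06 each.

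All 6 receptor genes were called. Rarb, a receptor gene and a known RA target, was 19.4-fold higher, a log2 difference of 4.27. Its other probe gave a log2 difference of 3.43. Rarg was 12.7-fold lower, with a log2 difference of -3.66 (SE 0.10, limma adjusted p = 1.69e-06) and Rara fell by 0.80. The count was 4 higher and 2 lower, or 2 higher and 2 lower with median scaling. Rxrg was called higher at its brightest probe (0.98), while its other probe gave -0.51.

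Among the other genes of retinyl ester storage and release, 2 of 8 fitted rose and 4 fell, or 2 and 6 with median scaling. Dgat2, an acyltransferase of triglyceride synthesis, rose by 0.99 and Lipa, the lysosomal acid lipase, by 0.67. Pnpla3, a lipase well above background on 2 of 3 RA arrays, fell by 2.43, and its other probe gave -0.62. Awat2, another acyltransferase, was 4.03-fold lower, with 0 of 3 RA arrays well above background. Of 3 relatives of LRAT by domain, Plaat3 was fitted, and its rise of 0.41 was 0.07 with median scaling and not called.

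Of 20 other cytochromes P450 fitted, 8 rose and 7 fell, or 4 and 9 with median scaling. Cyp1b1, a P450 that can also oxidise retinoids, was 70.1-fold higher, a log2 difference of 6.13 (SE 0.11, limma adjusted p = 6.24e-07), and Cyp4v3, well above background on 2 of 3 DMSO arrays, rose by 1.62. Cyp11a1, which starts steroid synthesis, was 23.2-fold lower, with 0 of 3 RA arrays well above background, and Cyp2s1 fell by 3.52. Of 4 genes listed as P450 electron donors, 3 were called higher and 1 lower, or 0 and 1 with median scaling. Cyb5a fell by 1.02. Por was higher by 0.41, Cyb5b by 0.28 and Cyb5r3 by 0.24, but with median scaling none of the 3 was called and Cyb5b (-0.06) and Cyb5r3 (-0.10) turned. The other probe of Cyb5b gave -2.01 and that of Cyb5r3 -0.78.

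Relatives of Dhrs3 among short-chain dehydrogenases mostly did not rise. Of 10 fitted, 2 rose and 6 fell, with a median of -0.65, and with median scaling 0 rose and 7 fell. The 2 were Rdh10, a retinol dehydrogenase (0.64, or 0.30 and not called with median scaling), and Dhrs13 (0.24, turned to -0.11). Hsd17b11 was 9.23-fold lower, a log2 difference of -3.21 (SE 0.07, limma adjusted p = 7.40e-07) and Dhrs7 fell by 1.33. Of genes known to respond to RA, 20 of 21 were called higher and 0 lower by limma, with a median of 4.27, and Hoxb5, a homeobox gene of body patterning, was higher by 7.65 (SE 0.13).

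**Figure D4:**
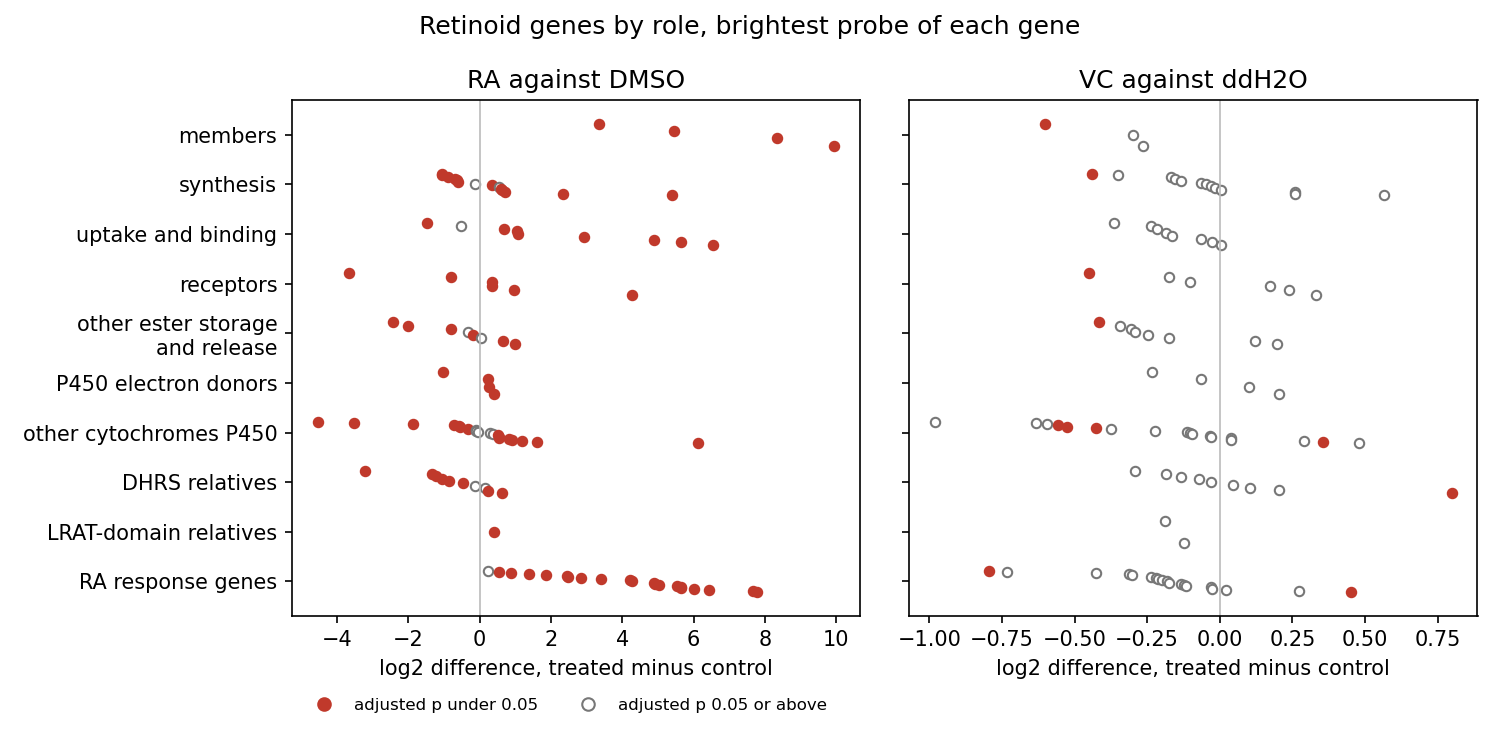
Log2 difference, treated minus control (horizontal axis), of each fitted retinoid gene by role in RA against DMSO (left) and VC against ddH2O (right), each panel on its own scale. The members lie between 3.34 and 9.95 in the left panel, where DHRS relatives lie between -3.21 and 0.64; filled points passed the limma test.

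In VC, 10.3% of 14550 genes were called, 3.17% higher and 7.11% lower, and the lists held between 0 and 4 called genes each. Of 13 synthesis genes fitted, Rdh11, a retinol dehydrogenase, fell by 0.44. None of 8 uptake and binding genes and none of 4 electron donors was called. One gene was called lower among 6 receptors (Rxrg, -0.45) and one among 8 ester genes (Dgat2, -0.42). The 2 other fitted probes of Dgat2 gave -0.36 and -0.15. Of 18 other cytochromes P450, Cyp20a1 was higher by 0.36 and 3 fell, among them Cyp2s1 (-0.56) and Cyp7b1 (-0.53). Of 9 DHRS relatives Dhrsx was higher by 0.80, and by 0.42 at its other probe. Of 19 RA response genes fitted, Gbx2 was higher by 0.45 and Foxa1, a pioneer transcription factor, was lower by 0.79. Median scaling added 1 higher call each in synthesis, electron donors and cytochromes P450.

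The Cyp26a1 repeat can be set beside the responses of other genes that hold one with 5 bases between the hexamers. Of 7 fitted in RA, Cyp26a1 included, 5 were called higher and 2 lower. Over all spacings searched (1, 2 or 5 bases), 15 of 44 fitted genes were higher (34.1%) and 18 lower (40.9%), close to the 34.3% and 41.2% of all 12728 genes with a window. With 5 bases, the higher genes besides Cyp26a1 and Rarb were Ppbp (5.26), Hbb-y (1.18) and Prss27 (1.09), and the lower genes were Blvrb (-1.53) and Cfap45 (-1.17). In VC, 8 were fitted and Prokr2 was called lower. Cyp26b1, Cyp26c1 and Dhrs3 rose with no such repeat in the windows searched.

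The genes beside the members on the chromosome were the 2 nearest protein-coding RefSeq genes on each side in order of start position, chosen after values were seen. Around Cyp26a1 and Cyp26c1, which neighbour each other, Exoc6 was -0.61, Hhex -0.28 and Cep55 0.10 in RA, the last not called, and Myof was not fitted. Around Cyp26b1, Dysf was -0.61, Zfp638 -0.63, Exoc6b 0.30 and Spr -0.31, the last not called. Beside Dhrs3, Tnfrsf1b was -0.86 and Aadacl4fm5 0.41 (limma adjusted p = 0.0498). Beside Lrat, Fgg was -0.02 and Fga 0.56, neither called, and Rbm46 was well above background on 3 RA arrays and on 0 DMSO arrays. In VC, Myof beside Cyp26a1 was called lower (-0.28, SE 0.05, limma adjusted p = 0.0338), next to -0.27 for Cyp26a1 itself, and no other fitted neighbour was called.

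The genes whose 6 array values, each minus the control mean, lay nearest to a member's by Euclidean distance were sought among 16018 genes in RA. Hoxc9, Cxcl5, Foxc1, Six3os1, Tdpoz9 and Cyp26c1 itself had 0 of 3 DMSO arrays well above background, so distances that involve them rest in part on background values. Nearest to Cyp26a1 were Nr2f1, Foxc1 and Smoc2 (distances 0.76, 0.87 and 0.90). Nearest to Cyp26b1 were Hoxc9, Cxcl5 and Hoxb6 (0.71, 1.04 and 1.25). Cyp26c1 lay nearest to Rcan2, Msx3 and Twist1 (0.33, 0.33 and 0.34), and Dhrs3 to Six3os1, Tdpoz9 and Pramel37 (0.19, 0.24 and 0.25). In VC, Chrna4, Hey1 and Rgs9 (0.13, 0.13 and 0.15 among 14515 genes) lay nearest to Cyp26b1. The nearest to Cyp26a1 there were Tmie, Jag2 and Cdc42ep2, and to Dhrs3 Crmp1, Jak3 and Prr36.

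Cell type markers moved with RA. Of 12 markers of pluripotent stem cells, all detected in DMSO, 10 fell and 2 rose, with a median log2 difference of -4.84. Their summed linear level relative to the 75th percentile, weighted to bright probes such as that of Dppa5a, which fell by 2.13, was 641 to 659 in DMSO and 123 to 129 in RA. The sums of the other marker lists are weighted to their bright probes in the same way. Of 10 primitive endoderm markers 9 rose (130 to 137, then 202 to 219), of 8 neural markers 6 rose and 2 fell (6.36 to 6.49, then 19.9 to 20.8), and of 10 fibroblast markers fitted 7 rose and 2 fell (40.1 to 41.9, then 73.0 to 80.4), with Lum and Postn not above background on any array. Blood and endothelium markers summed to 0.321 to 0.368 and then 0.420 to 0.491, with 2 of 4 fitted higher, 1 lower, and Cdh5, Hbb-bt and Lyz2 not above background on any array. Their part in the rise of the members was not tested, and in these bulk samples a change in the share of cells cannot be told apart from a change in RNA per cell.

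In VC, 4 of 10 pluripotency markers were called higher (summed levels of 561 to 642 in ddH2O and 599 to 649 in VC). Fibroblast markers summed to 27.0 to 28.6 and then 25.0 to 25.6, with 1 of 9 lower and Lum and Fbln5 not above background on any array. Primitive endoderm markers were called lower for 2 of 10 (23.3 to 27.1, then 23.1 to 27.5). Each of these 2 sums is mostly the signal of its brightest probe. In ddH2O Vim lay at 4.55 and the next fibroblast marker, Thy1, at 1.13. Sparc lay at 4.57 and the next primitive endoderm marker, Lama1, at -1.02. Neither Vim (limma adjusted p = 0.341) nor Sparc (0.994) was called. None of 8 neural (4.55 to 4.78, then 4.34 to 4.52) and none of 4 fitted blood and endothelium markers (0.536 to 0.572, then 0.573 to 0.617) was called, and Cdh5 and Lyz2 were not above background. Their part in the lower Cyp26b1 value was not tested.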

How the data were processed

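Intensity per spot is as deposited, background-subtracted and detrended by Agilent Feature Extraction, per the file headers (version 10.7 in the submitters' processing notes). As an alternative, the authors' deposited log2 values were used. Their normalization was not given in the sources used. Genome coordinates are those of RefSeq on GRCm38.p6.

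Log2 intensity minus the log2 of each array's 75th percentile over non-control spots was used. Outlier-flagged spots were left out and spots of a probe averaged. Probes were named by accession through the RefSeq gene table: 27479 of 41174 on the VC design and 27235 of 55681 on the RA design, and 0 through an older alias. The designs were fitted separately with limma 3.58.1 in R 4.3.3 (lmFit, eBayes; Benjamini-Hochberg over all probes). The code of the fit was also run on simulated data with independent normal noise. That setting lacks the slides and the widespread changes of these arrays, and no result here rests on it. Each gene was represented by its brightest probe over the 6 arrays.

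Named genes were the members, up to 2 called rises and 2 called falls per list with arrays that did not overlap, and the 3 nearest genes by likeness; 1 gene of this rule is not reported here. Members and lists were chosen with earlier results of these data known. Protein sequences were not used here. The labels do not say that replicate numbers pair samples, so no block was used in the main fit. Deviations of samples with the same number had correlations from -0.07 to 0.05, which are too few to exclude pairing.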

Additional observations from a re-analysis of the deposited data

How the results depend on the processing

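In RA against DMSO, Cyp26a1, Cyp26b1 and Dhrs3 stayed higher and called under all 16 alternatives, with log2 differences of 7.34 to 8.53, 8.24 to 10.13 and 5.11 to 5.78. Cyp26c1, which entered a fit only through its RA arrays, ranged from 0.97 to 3.51 over the 15 that fitted it, and its calls there say nothing about stability. Quantile normalization and the authors' series values are close to one transform and are not independent checks.

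In VC against ddH2O, Cyp26b1 lost its call with normexp correction (-0.27), no filter on dim probes (-0.60, adjusted p = 0.0804), a replicate block (-0.60, 0.0915) and slide as a fixed block (-0.54). Cyp26a1 (-0.27) and the brighter Dhrs3 probe (-0.30) gained one in the fits named above. Leaving out 1 replicate gave Cyp26b1 differences of -0.69 to -0.53. All VC member probes kept their sign, though settings that altered only the filter, the outlier flags, the variance model or a replicate block could not move it. The replicate block changed no member call in RA. The cause of the lost calls was not tested.

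Over all probes, limma called 835 higher and 1495 lower in VC. With median scaling 1387 were higher, with normexp 188 higher and 354 lower, and with limma-trend 2017 and 2244. With no filter, the replicate block, or slide as a fixed block, 0 were called either way by limma, with 7634, 7642 and 6070 at an unadjusted p under 0.05. Leave-one-out counts ran from 0 to 265 higher and 0 to 771 lower: without ddH2O replicate 1, ddH2O replicate 2 or VC replicate 1 limma called 0 (6262, 5824 and 6239 unadjusted), without ddH2O replicate 3 it called 104 and 282, without VC replicate 2 265 and 771, and without VC replicate 3 171 and 497. Whether replicate numbers pair the samples is not stated in the labels. In RA, no filter gave 22637 higher calls, one probe per named gene gave 5760 and 6745 from fewer features, and the share of higher calls moved from 50.4% to 63.6% with normexp. A repeat spacing of 0 to 8 bases again left 1 member with a match.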
